A study of Drosophila melanogaster with 46 samples.

Results

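CP190 peaks without a larval C2H2 peak were the peaks of the larval CP190 list that overlapped no larval CTCF, Pita or Su(Hw) peak by as much as 1 bp. They numbered 2012 of the 4220 CP190 peaks on chromosomes 2, 3, 4, X and Y, and the other 2208 overlapped at least 1 larval peak of the 3 proteins. The members were chosen by measured values, namely the positions of the peaks in the 4 larval lists, so CP190 enrichment, peak width and distance to larval C2H2 peaks are given below as descriptions with no test. Positions relative to genes, the share on the X chromosome and adult binding did not enter the choice.

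The series profiled chromatin of whole Drosophila melanogaster by ChIP-seq, which sequences the DNA recovered with an antibody, in 46 samples of 15 groups. The larval and adult wild-type samples had strain y1w1118 and genotype dCTCFwt, and CTCF was precipitated through an HA tag in both stages. Of 18 larval CP190 samples, 14 came from 4 mutant genotypes (CTCFdeltaCP alone or with SuHwdelta114, PitadeltaCP1 or both). The 7 peak lists were deposited for the series and are not tied to single samples. The larval CTCF, Pita and Su(Hw) lists that define the members and the 3 adult lists are named as wild type. The CP190 list names no genotype, so larval wild type cannot be told apart from mutants as its source. Each list was made from a pair of input lists, and the spread between animals or libraries behind a peak is unknown. Whole animals mix all tissues, so binding in fewer cells and weaker binding per cell cannot be told apart.

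CP190 is a BTB-domain zinc-finger protein of Drosophila insulators, the elements that limit contact between enhancers and promoters. It is known to be brought to DNA largely by other proteins. The C2H2 zinc-finger proteins CTCF, Pita and Su(Hw) each bind their own DNA motif and recruit it, and CP190 is also known at promoters of broadly expressed genes, where it meets proteins such as BEAF-32, M1BP and Ibf1. No list of BEAF-32, M1BP or Ibf1 was used here.

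The value of a peak is the fold enrichment over a control, as the authors' peak caller gave it. Its consistency is scored by the irreproducible discovery rate (IDR), which is low for peaks that rank alike in both inputs. The sources used here do not say what the inputs of a list were, so IDR limits may not mean the same across lists. The highest IDR was 0.00998 in the CP190 list, 0.00985 in the larval CTCF list and 0.00990 in the larval Su(Hw) list, but it reached 0.05 in the larval Pita list, so a larval Pita peak was admitted at a looser limit. The adult Su(Hw) list used further below reached 0.0499, and the other 2 adult lists stayed below 0.01. A CP190 peak without a larval C2H2 peak had a median fold of 3.59, within a range of 1.94 to 62.6, against 9.50 within 1.86 to 70.2 for CP190 peaks with one. The median of the authors' −log10 q was 23.1 without and 149 with a larval C2H2 peak, and the median width was 620 bp without and 832 bp with one. The −log10 p in the second input divided by that in the first had a median of 1.00 and ranged from 0.583 to 1.79 over the 2012 members, so neither input dwarfed the other at any member. That ratio was less even in the larval Pita list, with a median of 1.85, and in the adult Su(Hw) list, with 2.12.

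The share of members depended on the height of the CP190 peak. When the list was cut into 10 classes by fold, members made up 10.4% of the highest class (44 of 423 peaks) and 10.5% of the next. The share was 53.6% in the fifth class from the top, and it lay between 71.8% and 74.4% in the lowest 3 classes. The tall CP190 peaks were therefore mostly ones with CTCF, Pita or Su(Hw), and 44 of them were not.

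**Figure D1:**
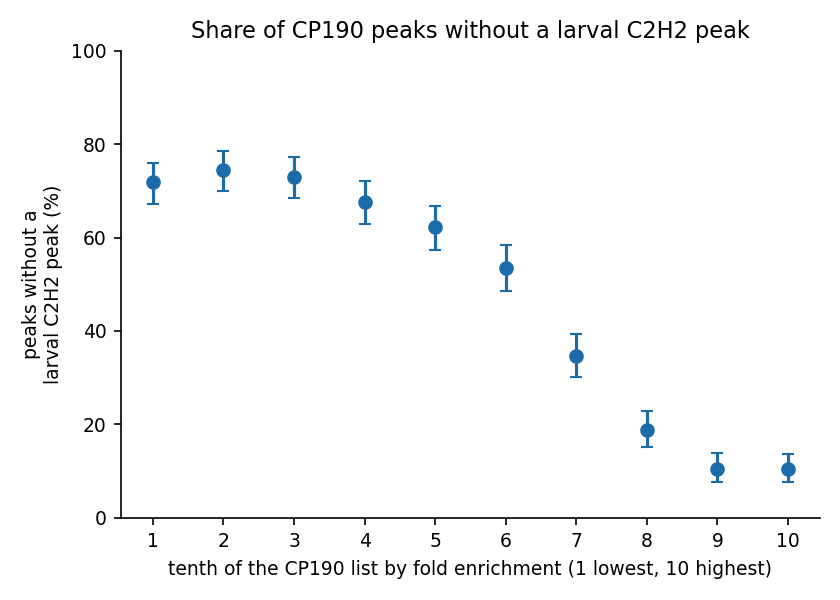
Share of CP190 peaks without a larval C2H2 peak (vertical axis, %) in 10 classes of the CP190 list by fold enrichment (horizontal axis, 1 lowest to 10 highest), with exact 95% binomial intervals. The share was 10.4% in the highest class and 71.8% in the lowest.

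The 15 highest members had folds of 42.5 to 62.6 and held ranks 16 to 154 in the CP190 list. Of these, 13 had their summit within 500 bp of an annotated gene end, 6 lay at the ends of 2 genes, and 11 had a summit outside every gene. The highest, at 62.6-fold, covered bases 12336080 to 12337075 of 3L (build dm6 throughout) next to CG10418. The second, at 62.0-fold, covered bases 16204869 to 16205955 of 3R beside mtSSB, which encodes the mitochondrial single-stranded DNA-binding protein. The third, at 57.9-fold, covered bases 9578919 to 9580687 of X beside LPCAT, a lysophosphatidylcholine acyltransferase gene.

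The 4 highest of this set that lay at ends of 2 genes were spread over 2L and 3R. The peak at bases 18198602 to 18200505 of 3R, 53.6-fold, lay at CG7985 and Ssdp, a cofactor of LIM-domain transcription complexes. The peak at bases 8708524 to 8710149 of 2L, 53.5-fold, had ends of Hnf4, a nuclear receptor gene, and raw within 500 bp. A 52.7-fold peak at bases 14326181 to 14327816 of 3R lay at ATPsynE, an ATP synthase subunit, and Afti. A 50.8-fold peak at bases 8239503 to 8240611 of 2L lay at Pvr, the PDGF and VEGF receptor homologue, and the serpin gene Spn28F. The set also held Ero1L, the oxidase of disulfide formation in the endoplasmic reticulum, at 51.6-fold, and the phosphoglycerate mutase gene Pglym78 at 49.1-fold.

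The remaining high members were at CG5445 (48.6-fold), at CG6420 (45.7-fold) and at CG11617 with Tbc1d15-17 (45.3-fold). The 2 members of the 15 that were not within 500 bp of a gene end were 1 at 44.5-fold, 682 bp from an end of the cyclin-dependent kinase gene Cdk4, and 1 at 42.5-fold inside Tm1, a tropomyosin gene, 2390 bp from the nearest gene end. The peak at bcd, the maternal gene of anterior patterning, had 53.9-fold (bases 6759287 to 6760154 of 3R).

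Most members lay at gene ends, meaning either end of an annotated gene, because the gene table gives no strand and a start could not be told from a stop. The summit was within 500 bp of a gene end at 1755 of 2012 members, 87.2% (95% exact binomial interval 85.7 to 88.7), against 1235 of 2208 CP190 peaks with a larval C2H2 peak, 55.9% (53.8 to 58.0). The odds ratio was 5.38 (95% interval 4.61 to 6.29; Fisher's exact test, two-sided, p = 1.13e-115 after Benjamini-Hochberg adjustment over 3 shares tested). Here and below a p-value compares peaks of the lists, which are not replicates of an animal, and says nothing of the spread between samples. The intervals cover counting error only.

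The median distance from summit to the nearest gene end was 64 bp for members (quartiles 29 and 153 bp) and 320.5 bp for CP190 peaks with a larval C2H2 peak (quartiles 93 and 1870 bp). Members within 50 bp of an end made up 41.4%, against 12.0% of the peaks with a larval C2H2 peak. Within 200 bp, the shares were 79.6% without and 41.9% with a larval C2H2 peak. Among peaks with a larval Pita peak only, 22.6% lay within 50 bp and 69.9% within 200 bp. Members were thus close to the annotated ends themselves, and not only in their neighbourhood.

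Each protein was then set apart, in 8 comparisons added after the first results were seen. The peaks with Pita alone were the nearest to the members: 82.0% of them (493 of 601) had a gene end within 500 bp, for an odds ratio of 1.50 (1.17 to 1.91; Fisher exact test, adjusted p = 0.00184). Peaks with CTCF alone followed at 69.8% (odds ratio 2.96, Fisher exact test, adjusted p = 2.11e-12). Peaks with Su(Hw) alone stood farthest, at 36.9% (odds ratio 11.7, Fisher exact test, adjusted p = 4.52e-175), with a median distance of 1045 bp, against 97 bp for Pita alone and 159 bp for CTCF alone. Within quartiles of CP190 fold, the difference from Pita alone had a Mantel-Haenszel odds ratio of 1.76 (95% interval 1.32 to 2.34). Peaks with 2 or 3 of the proteins had a gene end within 500 bp in 54.5% (odds ratio 5.69, Fisher exact test, adjusted p = 1.27e-37).

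**Figure D2:**
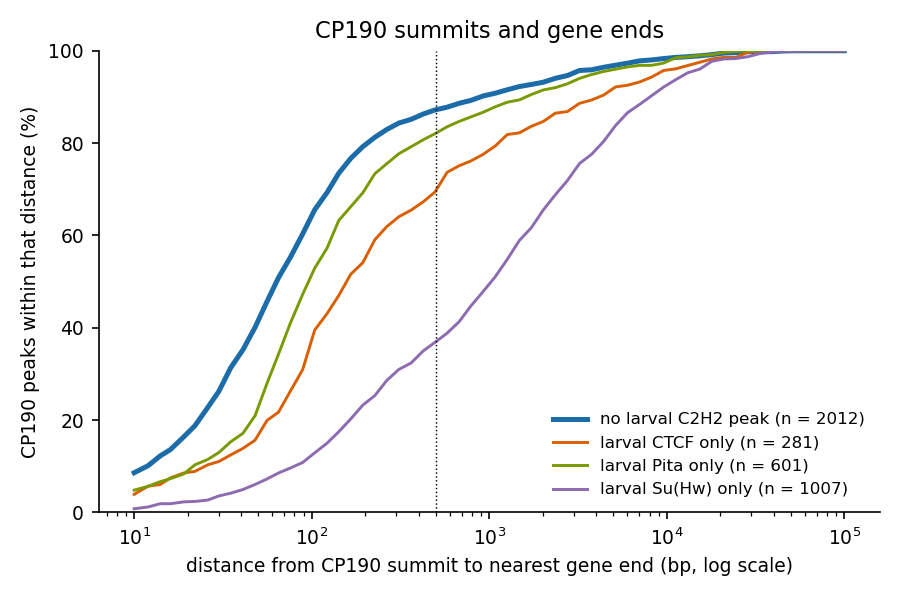
Cumulative share of CP190 peaks (vertical axis, %) whose summit lay within a given distance of the nearest gene end (horizontal axis, bp, log scale), for peaks without a larval C2H2 peak and peaks with a larval peak of 1 protein only; the dotted line marks 500 bp. The curve of the 2012 peaks without a larval C2H2 peak lay to the left, with 87.2% within 500 bp, and that of Su(Hw) alone to the right, with 36.9%.

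The difference was present at every height of CP190 peak. Across quartiles of the whole CP190 list by fold, 86.2, 87.6, 88.2 and 87.9% of members lay within 500 bp of a gene end, from the lowest to the highest quartile. The peaks with a larval C2H2 peak had 41.6, 47.6, 53.7 and 65.1%. The share of members was therefore level, while that of the others was larger in each higher quartile, and within quartiles the odds ratio was 6.91 (5.78 to 8.26).

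The summit lay within 500 bp of the ends of 2 or more genes at 1198 members, 59.5% (57.4 to 61.7), against 642 CP190 peaks with a larval C2H2 peak, 29.1% (27.2 to 31.0). The odds ratio was 3.59 (3.16 to 4.08; Fisher exact test, adjusted p = 2.44e-89). From the lowest to the highest quartile of CP190 fold, the member shares were 59.6, 62.1, 59.5 and 46.2%. Those of the peaks with a larval C2H2 peak were 19.9, 27.1, 29.6 and 32.3%. The shares thus lay nearest to each other in the highest quartile. By count, 557 members were near 1 gene, 1058 near 2 genes, 140 near 3 or more and 257 near none. The same 8 comparisons covered the single proteins here. Against Pita alone, at 54.7%, the odds ratio was 1.22 (1.01 to 1.46; Fisher exact test, adjusted p = 0.0380), and within quartiles of CP190 fold it was 1.08 (0.876 to 1.34), an interval that holds 1. The difference from Pita alone in this measure was thus not detected at like CP190 fold. Against CTCF alone, at 34.5%, the odds ratio was 2.79, against Su(Hw) alone, at 14.4%, it was 8.75, and against peaks with 2 or 3 proteins, at 22.3%, it was 5.14 (Fisher exact tests, highest adjusted p = 5.18e-15).

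Neighbouring ends are common in this compact genome: 57.7% of protein-coding gene ends had the end of another gene within 500 bp. This share was measured from gene ends and not from summits, so it is no direct match for the member shares.

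Among peaks already near a gene end, 68.3% of members (1198 of 1755) were near 2 or more genes, against 51.98% of the peaks with a larval C2H2 peak (642 of 1235), an odds ratio of 1.99 (1.71 to 2.31; Fisher exact test, adjusted p = 6.54e-19 over 2 tests added after the first results were seen). Against Pita alone, at 66.7% (329 of 493), the odds ratio was 1.07 (0.867 to 1.33; Fisher exact test, adjusted p = 0.548), so no difference from Pita was detectable, within an interval that reaches 1.33. Members outside genes seldom lay in wide gaps. The gap between the flanking genes had a median of 374 bp at 1251 members (quartiles 239.5 and 761 bp). The median was 1282 bp at 1266 peaks with a larval C2H2 peak. Over all 12287 gaps between genes it was 472 bp (quartiles 191 and 1959 bp). The lower quartile at members was thus above that of all gaps, and the upper quartile was below. Gaps at peaks with Pita alone were not measured.

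**Figure D3:**
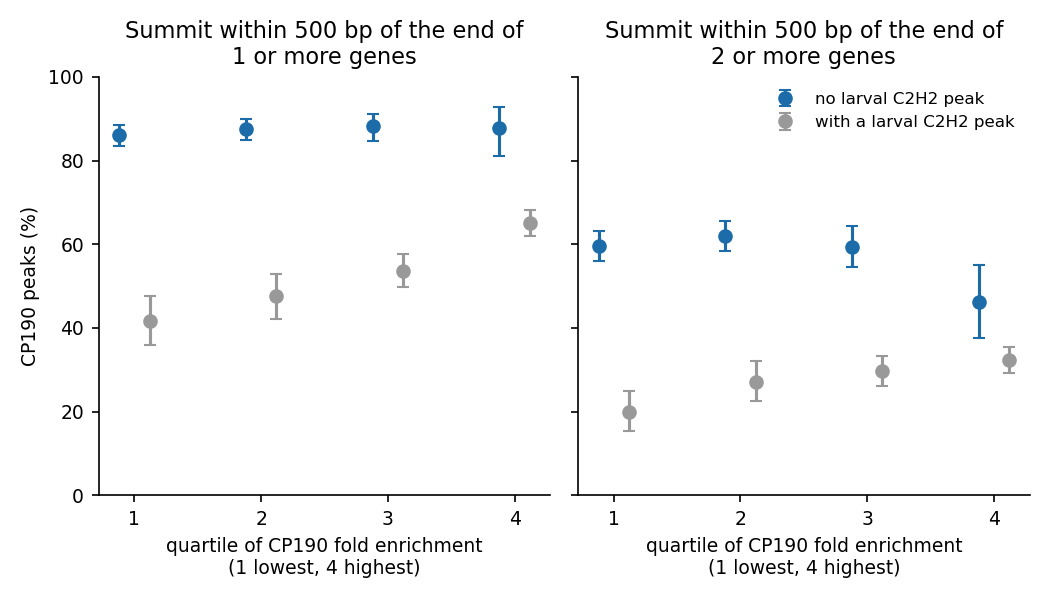
Share of CP190 peaks (vertical axes, %) with the summit within 500 bp of the end of 1 or more genes (left) and of 2 or more genes (right), by quartile of CP190 fold (horizontal axes), for peaks without and with a larval C2H2 peak; bars are exact 95% binomial intervals. Members lay between 86.2% and 88.2% at 1 or more genes, above the other peaks in each quartile. At 2 or more genes, members had 46.2% in the highest quartile, against 32.3% of the other peaks.

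The genes at members were described by 20 lists. A member summit lay within 500 bp of an end of 2800 of 13946 protein-coding genes, 20.1%, and of 2974 of 17807 genes of all kinds, 16.7%. A CP190 peak with a larval C2H2 peak, called C2H2-carrying below, lay there at 1718 protein-coding genes, 12.3%. These shares are the background for the counts below, which carry no test, and 1 peak between neighbours counts for each of them.

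Lists of general cell functions stood above 20.1%. Of 30 splicing genes, 19 (63.3%) had a member at an end, against 16.7% with a C2H2-carrying CP190 peak. The highest were at Brr2, the helicase of the U5 particle (8.03-fold), SNRPG, a core Sm protein (6.30-fold), the splicing factor SF2 (6.003-fold) and x16, an SR protein (4.74-fold, shared with the kinase gene Wee1). Of 36 DNA replication genes, 20 (55.6%) had a member, against 5.56% with a C2H2-carrying CP190 peak. The replicative helicase subunit Mcm7 had 19.9-fold at a peak shared with dally, the origin recognition subunit Orc2 had 16.4-fold, Mcm6 had 5.79-fold and the polymerase subunit PolA1 had 5.58-fold.

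Of 93 cytoplasmic ribosomal protein genes, 50 (53.8%) had a member, against 28.0% with a C2H2-carrying CP190 peak, which was above the 12.3% of all protein-coding genes as well. The highest were RpS4 at 27.6-fold, RpL34b at 24.3-fold on an adult CTCF peak, RpL36A at 19.01-fold and RpL14 at 11.5-fold. The peak of RpL14 also lay at Nelf-E, a subunit of the factor that holds paused RNA polymerase II. The median of the highest member fold per gene was 5.43 in this list.

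Other genes of energy supply, protein synthesis and protein turnover also stood above 20.1%. Of 82 respiratory chain genes, 33 (40.2%) had a member, against 12.2% with a C2H2-carrying CP190 peak. After ATPsynE, the highest were COX7AL2 at 10.5-fold and COX5A at 9.84-fold, both of cytochrome c oxidase, and UQCR-11 of complex III at 8.90-fold. Of 48 proteasome genes, 17 (35.4%) had a member, against 10.4% with a C2H2-carrying CP190 peak, led by Prosalpha5, a core subunit, at 37.6-fold and the regulatory particle subunits Rpn10 at 12.6-fold and Rpn9 at 9.09-fold, and by Prosbeta3 at 6.26-fold. Of 75 mitochondrial ribosomal protein genes, 23 (30.7%) had a member, against 10.7% with a C2H2-carrying CP190 peak, and the highest were mRpL34 at 13.5-fold, mRpS21 at 8.50-fold, mRpL22 at 8.05-fold and mRpS18A at 6.97-fold.

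Of 69 translation factor and tRNA synthetase genes, 25 (36.2%) had a member, against 23.2% with a C2H2-carrying CP190 peak. LysRS, which charges lysine tRNA, had 23.0-fold, the cap-binding factor eIF4E1 17.3-fold on an adult Pita peak, eEF1alpha1 6.60-fold and eIF1 5.74-fold. Of 63 genes of RNA polymerase II and its general factors, 25 (39.7%) had a member, against 14.3% with a C2H2-carrying CP190 peak. The Mediator subunits MED14, MED4 and MED25 had 7.40-, 7.28- and 5.25-fold, and the TFIID subunit Taf9 had 7.18-fold.

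Regulators of development were uneven. Of 30 Polycomb and trithorax genes, 14 (46.7%) had a member, against 13.3% with a C2H2-carrying CP190 peak. These included the zinc-finger gene jing (10.9-fold), osa of the Brahma remodelling complex (8.60-fold), Su(z)2 (7.09-fold) and the histone H3 methyltransferase trr (6.84-fold, at a peak that also lay at mRpL16). Of 18 Notch pathway genes found in the table, 6 (33.3%, interval 13.3 to 59.0) had a member, against 1 (5.56%) with a C2H2-carrying CP190 peak. Among the 6 were the coactivator mam (9.67-fold), the ubiquitin ligase neur (8.22-fold), the corepressor gro (6.50-fold) and the DNA-binding factor Su(H) (4.19-fold). The mam and neur peaks also lay at RN-tre and tgo.

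Of 25 segmentation genes, 5 (20.0%) had a member, at the background, and 1 (4.00%) had a C2H2-carrying CP190 peak. After bcd, the genes with a member were led by hry, wg and hh at 4.81-, 4.70- and 4.58-fold. Of 8 Hox genes, 0 had a member, which allows a share of up to 36.9% by the exact interval, and 1 had a C2H2-carrying CP190 peak. Insulator protein genes were at the background too, with 5 of 23 (21.7%), the same count as with a C2H2-carrying CP190 peak. Of these, ewg had 4.01-fold, Ibf1 3.83-fold, insv 3.37-fold and Clamp 3.03-fold.

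Lists of tissue-limited genes had shares under 20.1%. Of 124 cuticle genes, 2 (1.61%) had a member, Lcp9 at 3.56-fold and Cpr11A at 2.62-fold, against 10 (8.06%) with a C2H2-carrying CP190 peak. Of 185 chemoreceptor genes, 9 (4.86%) had a member, against 6 (3.24%) with a C2H2-carrying CP190 peak, which was under 12.3% as well. The highest were Or46a at 10.5-fold, Ir60b at 8.77-fold, Gr28a at 7.84-fold and Ir68b at 3.84-fold. The peaks named at Or46a, Ir60b and Ir68b lay nearer to ends of CG18011, Letm1 and yps, at 26, 47 and 13 bp. Of 25 synaptic genes, 2 (8.00%, interval 0.984 to 26.0, which holds 20.1%) had a member, against 5 (20.0%) with a C2H2-carrying CP190 peak. The 2 genes with a member were the potassium channel gene Sh at 4.14-fold and the vesicle fusion gene Rop at 2.74-fold, the second at a peak shared with the replication gene RfC4.

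Small RNA genes were also below the 16.7% of all genes. C2H2-carrying CP190 peaks lay at 5.08% of tRNA, 1.52% of snoRNA and 2.69% of microRNA genes, against 10.5% of all genes. Of 295 tRNA genes, 18 (6.10%) had a member, at 14 distinct peaks, with 26.3-fold beside tRNA:Ala-CGC-1-2 and tRNA:Ala-CGC-1-3 and 22.6-fold beside tRNA:iMet-CAT-1-4 and tRNA:iMet-CAT-1-5. Of 264 snoRNA genes, 11 (4.17%) had one, led by a 19.9-fold peak at a pair of snoRNA genes next to CG13334, and by snoRNA:Psi18S-1275 (10.2-fold) and Uhg5 (8.16-fold). Of 260 microRNA genes, 10 (3.85%) had one, with mir-4980 at 7.98-fold, mir-92a at 5.23-fold, mir-3645 at 4.49-fold and mir-2b-1 at 4.29-fold. Histone genes are set beside the protein-coding shares of 20.1% and 12.3%. Of 123 histone genes, 1 (0.813%) had a member, His3.3A at 3.60-fold, a variant gene outside the repeated histone cluster. A C2H2-carrying CP190 peak lay at 2.44% of them. Reads from near-identical copies of tRNA and histone genes may have been placed on any copy, so these counts are uncertain.

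**Figure D4:**
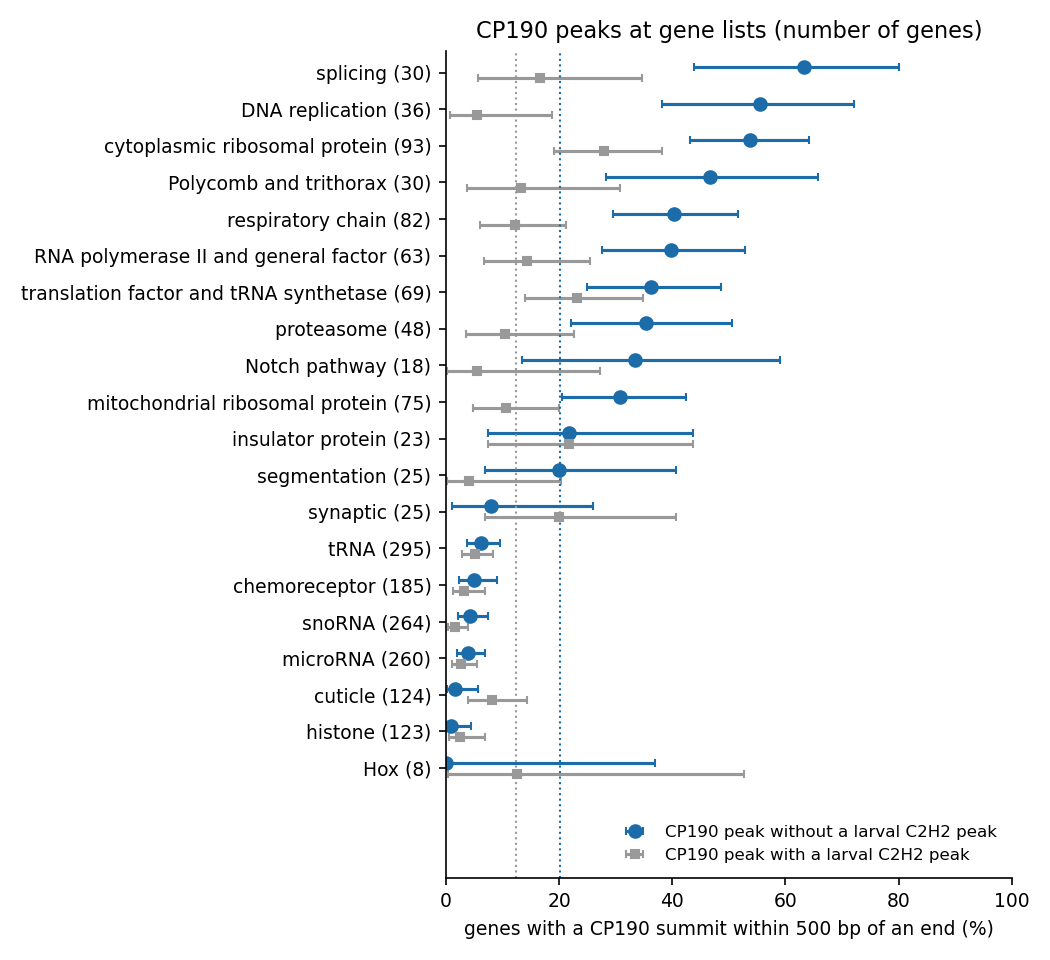
Share of genes in each of 20 lists (horizontal axis, %) with a CP190 summit within 500 bp of a gene end, for peaks without (circles) and with (squares) a larval C2H2 peak; bars are exact 95% binomial intervals, numbers in brackets are genes per list, and dotted lines mark the shares over all protein-coding genes, 20.1% and 12.3%. Splicing genes were highest at 63.3% and Hox genes lowest at 0%.

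The 257 members away from gene ends included 211 inside a gene. Beyond 10 kb from any gene end lay 34 members, 30 of them inside a gene. Named after their values were seen, the highest of these was a 40.9-fold peak inside SNF4Agamma, the gene of the regulatory gamma subunit of AMP-activated kinase (bases 21184436 to 21185353 of 3R, 16727 bp from the nearest end), followed by 15.1-fold inside tara and 11.2-fold inside Eip75B, an ecdysone-induced nuclear receptor gene. The gene tara held 4 of these far members, the others at 2.97-, 3.81- and 3.44-fold. The translational repressor gene pum held 3 members more than 2000 bp from a gene end, at 3.13-, 2.34- and 3.97-fold.

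By chromosome arm, 363 members lay on 2L, 417 on 2R, 404 on 3L, 480 on 3R, 12 on chromosome 4, 336 on X and 0 on Y. They made up between 45.0% of the CP190 peaks on X and 51.7% on 2R. The X held 16.7% of members, against 18.6% of CP190 peaks with a larval C2H2 peak and 15.2% of genes. The odds ratio was 0.877 (0.748 to 1.03; Fisher exact test, adjusted p = 0.106), so a lower X share was not detected, although it passed 0.05 when peaks were matched by summits within 200 bp (0.843, adjusted p = 0.0359). The highest members on chromosome 4 were 12.8-fold at ey, the eye selector gene, and 4.73-fold at Cadps, a gene of vesicle release.

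Distances to larval C2H2 peaks had no background of other positions beside them. They do not show whether members lay unusually near such peaks. The gap from a member to the nearest larval C2H2 peak had a median of 9637.5 bp, and 51.6% of members had one within 10000 bp. It was at most 500 bp for 50 members (2.49%). The nearest peak was Su(Hw) for 1007 members, Pita for 706 and CTCF for 299. The lists held 3374, 1213 and 808 peaks in the same order. The counts thus follow the order of the list sizes but are not in proportion to them. Just inside the limit were the peaks at Tmtc3 and mago, 13 bp from a larval C2H2 peak (2.26-fold), at papi and mio, 16 bp away (2.78-fold), and at FASN1, 16 bp away (2.26-fold). Just outside were CP190 peaks that overlapped one by 33 bp at Gr97a and Tsp97E (3.69-fold), by 90 bp at CG12134 and eIF3j (2.41-fold) and by 95 bp inside sick (3.54-fold).

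Adult lists of the same 3 proteins gave a view of these places at another stage. An adult peak of any of them overlapped 115 members, 5.72% (4.74 to 6.82), against 93.3% of CP190 peaks with a larval C2H2 peak, a contrast that the choice by larval peaks of these proteins bears on and that was not tested. The adult peak was of Pita at 86 members (4.27%), of Su(Hw) at 23 (1.14%, from the list with the looser IDR limit) and of CTCF at 9 (0.447%), and 3 members lay on both CTCF and Pita. Among members in their own fold quartiles, 4.77, 4.56, 4.58 and 8.95% lay on an adult peak, from the lowest to the highest quartile.

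Most of these adult peaks were low. The adult Pita peaks on members had a median fold of 3.00, against 7.12 over the adult Pita list. Adult CTCF peaks on members had 3.29, against 12.5 over their list, and adult Su(Hw) peaks 4.56, against 9.38. When the adult lists were limited to peaks at or above their own median −log10 q, 11 members (0.547%) still overlapped one, 8 of them with Pita, 4 with CTCF and 0 with Su(Hw).

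The highest members on adult CTCF peaks were an exception in height. The member inside SNF4Agamma overlapped an adult CTCF peak of 153-fold, and the member at mtSSB one of 127-fold. At bcd the adult CTCF peak had 251-fold. The same mtSSB and bcd members also overlapped adult Pita peaks, of 2.49- and 10.7-fold, while LPCAT and Ero1L had adult Pita peaks of 1.93- and 2.10-fold. The 9 members on adult CTCF peaks had a median CP190 fold of 24.3. Members on adult Pita peaks had 4.45 and those on adult Su(Hw) peaks 4.50, against 3.55 for members on none.

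Position differed among these small sets. A gene end lay within 500 bp of 73 of the 86 members on adult Pita peaks (84.9%), and of 8 of the 23 on adult Su(Hw) peaks (34.8%). The highest members on adult Su(Hw) peaks were the 19.9-fold peak at the snoRNA pair next to CG13334, a 14.6-fold peak at Acyp and Ance-2, and a 14.0-fold peak at CG5346 and CG33099. From the adult side, 453 adult Pita peaks had no larval Pita peak. Of these, 167 lay on any CP190 peak and 83 on a member. Of 197 such Su(Hw) peaks, 29 lay on any CP190 peak and 22 on a member. Of 106 such CTCF peaks, 26 lay on any CP190 peak and 9 on a member. Members were 2012 of the 4220 CP190 peaks, so the Pita count was near their share of that list. Stage and libraries differ between the larval and adult lists, and their part in these overlaps was not tested.

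**Figure D5:**
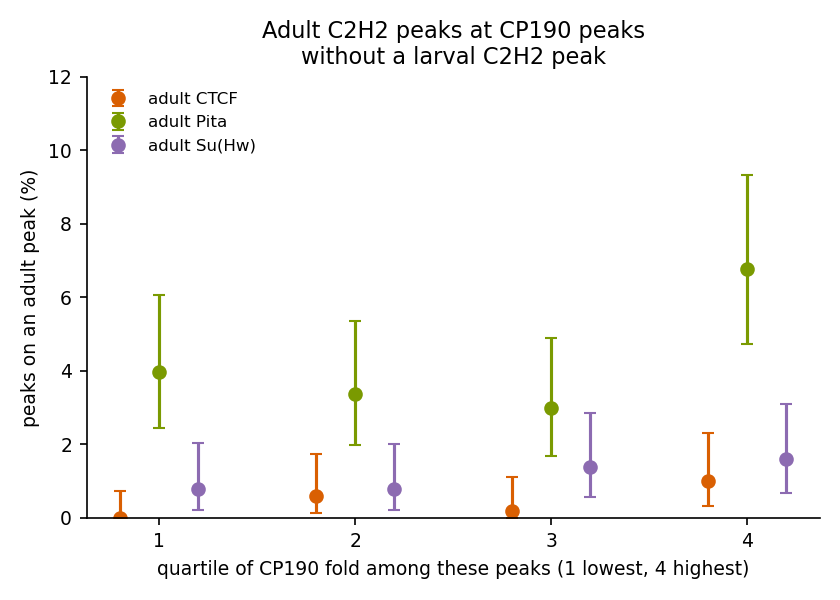
Share of CP190 peaks without a larval C2H2 peak that overlapped an adult CTCF, Pita or Su(Hw) peak (vertical axis, %), by quartile of CP190 fold among these peaks (horizontal axis); bars are exact 95% binomial intervals. Adult Pita was the most frequent in each quartile, at 6.76% in the highest and 3.98% in the lowest.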

How the data were processed

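The 7 deposited peak lists hold 20 columns per peak, with the fold enrichment (a ratio), −log10 p and −log10 q and the IDR score that the authors' tools wrote. Per the submitters' processing notes, cutadapt, Bowtie2, Picard, bedtools, MACS2, deepTools and build dm6 were used; versions, roles and the control behind the fold are not given in the sources used here. Read depth is unknown. The lists are not tied to samples, so replicates could not be compared and n is a count of peaks.

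Peaks overlapped when they shared at least 1 bp. Gene positions came from the RefSeq table of the Release 6 assembly, with 17807 genes on the main chromosomes, 13946 of them protein-coding. It gives no strand, so both gene ends replaced the planned gene starts. No sequence was read, and the planned search for sequence words was not run.

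Shares have exact Clopper-Pearson 95% intervals and odds ratios have Woolf intervals, with two-sided Fisher exact tests (scipy 1.17.1) and Benjamini-Hochberg adjustment at a threshold of 0.05. Mantel-Haenszel odds ratios were taken within 4 quartiles of CP190 fold (statsmodels 0.14.6). The code was tested on simulated data. Named were the 15 highest members, the 3 highest on adult peaks of each protein, the 3 on either side of the overlap rule, the highest on chromosome 4 and up to 4 genes per list. Members and lists were chosen with earlier results of these data known. The comparisons with single proteins, those among peaks near a gene end, and the setting without members on adult peaks were added after seeing the data.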

Additional observations from a re-analysis of the deposited data

How the results depend on the processing

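The odds ratio for 1 gene end near the summit lay between 4.54 and 6.91 and that for 2 or more between 2.95 and 4.05, past 0.05 in all 11 alternatives each (overlap rule, gap, height, autosomes, distance, peak edge, protein-coding genes, fold quartiles, and without the members on adult peaks). The X share was not past 0.05 in 4 of 5 alternatives and was with summits within 200 bp (odds ratio 0.843, adjusted Fisher exact p = 0.0359). The cause was not tested. Keeping CP190 peaks whose −log10 q was no lower than the list's median left 540 of 2012 members. They had a median fold of 7.28 and an adult share of 9.26%. The cut acts on CP190 height, so a higher median fold follows from it, but the number of members left was not fixed by it. Adult peaks whose −log10 q was no lower than their list's median overlapped 0.547% of members. The X share was not recomputed on autosomes. No paired analysis was possible because the lists carry no replicate numbers, and for the same reason no replicate could be left out. The lack of a larval C2H2 peak means that none passed the authors' limits, and unknown depth bounds what those lists could hold.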
